A study of Mus musculus with 6 samples.

Results

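The ErbB family is a set of receptor tyrosine kinases that, with their ligands, was followed here in 6 RNA-seq libraries of thoracic lateral plate mesenchyme cells (LPMs) from mouse embryos at E10.5. The 10 genes were taken by symbol from the count table, 4 receptors (Egfr, Erbb2, Erbb3 and Erbb4) and 6 ligands (Hbegf, Areg, Ereg, Tgfa, Btc and Nrg1), out of 49585 genes in all. Of the 10, 6 had at least 10 counts in at least 3 libraries and entered the test with 10891 genes in total, namely the 4 receptors, Hbegf and Nrg1. The 3 control samples were heterozygous (Prx1-Cre Ebf3 flox/+) and the 3 KO samples had both alleles floxed (Prx1-Cre Ebf3 flox/flox), all labelled C57BL/6 and given as C57BL/6NCrSlc in the methods. Every sample carried Prx1-Cre, a transgene active in limb and body wall mesenchyme, and the R26R Tdtomato reporter by which the cells were sorted, so the controls too had 1 allele open to deletion and no library without Cre was among them. The comparison asked which transcripts of these cells changed when the second copy of Ebf3, a transcription factor required for sternum ossification, was removed.

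ErbB receptors bind ligands of the EGF family at the cell surface, form pairs and phosphorylate each other. Egfr binds Hbegf, Areg, Ereg, Tgfa and Btc. Erbb3 and Erbb4 bind neuregulins, and Erbb4 also binds Hbegf. Erbb2 has no ligand of its own and serves as the partner of the others. In the mouse embryo, the neuregulin receptors are known for their roles in heart trabeculation and in neural crest and Schwann cell precursors, and Egfr for growth of epithelia, cartilage and bone.

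The libraries held 2088091 to 3525565 counts on genes, and between 83.4% and 88.4% of their reads were mapped. Ebf3 itself had 308, 238 and 248 counts in the heterozygous libraries and 179, 87 and 220 in the KO libraries, a log2 fold change of -0.74 in the KO (unadjusted p = 0.00161, edgeR quasi-likelihood test). Only exons 5 and 6 are floxed, and counts over the whole gene do not measure those exons alone. The 10 mesenchyme markers checked (Prrx1, Pdgfra, Twist1, Col1a1 and others) summed to between 3936 and 5286 CPM (counts scaled to library size with TMM factors) in the heterozygous libraries and between 3300 and 5026 in the KO libraries. Markers of other cell types were also present and uneven, with heart muscle genes from 12.8 to 1508 CPM and liver genes from 7.89 to 243 CPM in summed level.

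Promoters are given for 4 members on which the results turn: Egfr, the 1 member whose KO libraries all lay above the heterozygous libraries (as did 3.95% of all genes tested), Erbb2, the most abundant, Erbb4, whose level differed widely between libraries, and Areg, the least counted. They are RefSeq sequences of GRCm38.p6, from 250 bases before to 50 after the RefSeq start of the gene, which for Erbb2 lies downstream of the start in the count table, written 5′ to 3′ on the strand of the gene. Capitals mark a GC box (GGGCGG on either strand) or a TATA box (TATAAA on either strand). The windows are chr11:16751953-16752252 on the plus strand for Egfr, chr11:98412234-98412533 on the plus strand for Erbb2, chr1:69108010-69108309 on the minus strand for Erbb4 and chr5:91139349-91139648 on the plus strand for Areg.
Egfr: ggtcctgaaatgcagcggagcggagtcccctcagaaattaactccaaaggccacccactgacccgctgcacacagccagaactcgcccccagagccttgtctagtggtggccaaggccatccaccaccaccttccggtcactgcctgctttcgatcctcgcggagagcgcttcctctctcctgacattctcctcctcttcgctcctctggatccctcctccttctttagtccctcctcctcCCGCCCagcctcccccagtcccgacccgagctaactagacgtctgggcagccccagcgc
Erbb2: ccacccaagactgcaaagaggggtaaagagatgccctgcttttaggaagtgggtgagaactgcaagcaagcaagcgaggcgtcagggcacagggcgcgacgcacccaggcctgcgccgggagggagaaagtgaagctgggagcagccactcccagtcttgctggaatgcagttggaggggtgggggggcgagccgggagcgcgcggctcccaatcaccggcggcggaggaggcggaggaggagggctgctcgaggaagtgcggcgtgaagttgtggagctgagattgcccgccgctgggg
Erbb4: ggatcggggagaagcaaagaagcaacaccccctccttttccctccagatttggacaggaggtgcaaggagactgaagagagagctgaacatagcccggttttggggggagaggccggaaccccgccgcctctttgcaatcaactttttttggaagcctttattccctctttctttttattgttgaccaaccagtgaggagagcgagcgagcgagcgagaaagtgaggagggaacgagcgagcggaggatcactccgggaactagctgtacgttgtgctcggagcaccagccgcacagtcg
Areg: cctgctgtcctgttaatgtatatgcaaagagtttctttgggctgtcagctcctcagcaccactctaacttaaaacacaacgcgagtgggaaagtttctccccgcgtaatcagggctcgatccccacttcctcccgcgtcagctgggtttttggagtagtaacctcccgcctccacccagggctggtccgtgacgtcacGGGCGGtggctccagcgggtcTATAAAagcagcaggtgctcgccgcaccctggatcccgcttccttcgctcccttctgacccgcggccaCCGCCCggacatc

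A promoter was matched for 6 of the 10 members, and Erbb3, Hbegf, Ereg and Nrg1 had none. CCCNNGGG, the core of the palindrome to which Ebf factors are known to bind, was in 0 of the 6 windows and in 13.7% of all 32851 promoter windows, read on both strands. The GC box was in 3 of the 6 (Egfr, Areg and Tgfa) against 35.7% of all windows, and the TATA box was in 1 of the 6 (Areg) against 13.6%. In Egfr the GC box began 9 bases before the start, and in Areg the TATA box began 31 bases before it. The windows were rich in G and C, at 62.3% for Egfr, 66.0% for Erbb2, 55.3% for Erbb4 and 59.3% for Areg, where the median of all windows was 52.7%. A match in these letters is a description of the sequence, and the absence of a match says nothing of binding elsewhere.

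**Figure D1:**
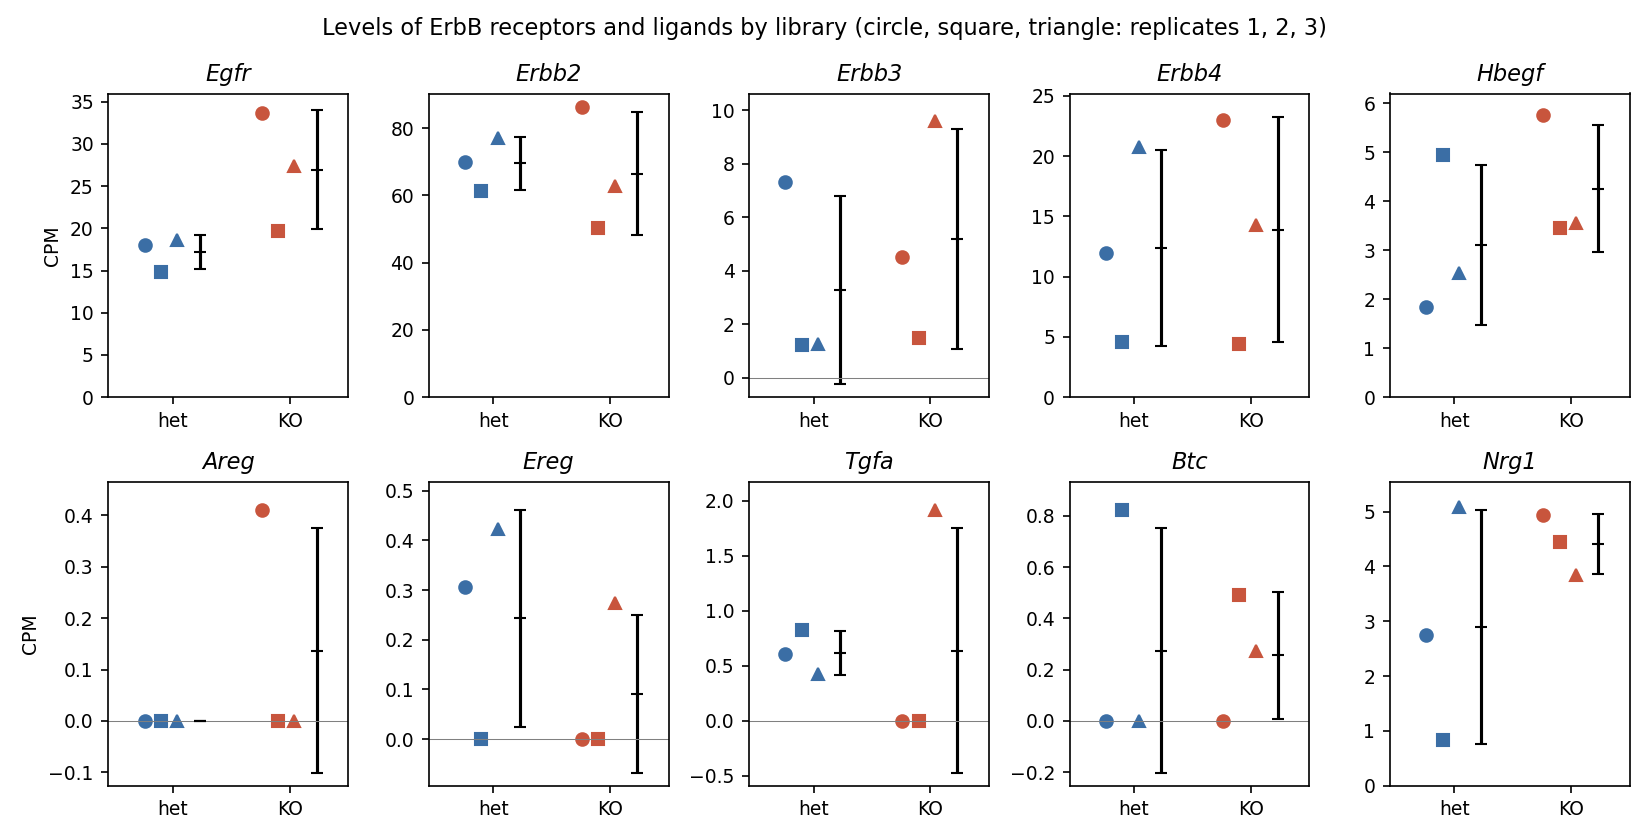
Level of each of the 10 genes in every library, in CPM (counts scaled to library size, linear axis of its own for each gene), with heterozygous (het) libraries in blue and KO libraries in red. Circles, squares and triangles are replicates 1, 2 and 3, and black bars are the mean ± SD of 3 libraries. Egfr is the 1 gene of the 10 whose KO libraries, from 19.7 to 33.7 CPM, all lie above the heterozygous libraries, from 14.8 to 18.6 CPM.

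Egfr, the receptor for EGF, TGF-alpha and amphiregulin (chr11:16752203-16918158, mm10), was higher in the KO libraries at the nominal level. Its counts were 59, 36 and 44 in the heterozygous libraries and 82, 40 and 100 in the KO libraries. On the CPM scale these were 18.0, 14.8 and 18.6 against 33.7, 19.7 and 27.4. Every KO library was above every heterozygous library, and the nearest pair, heterozygous replicate 3 and KO replicate 2, lay close together. The means were 27.0 ± 7.0 CPM in the KO and 17.2 ± 2.04 in the heterozygous samples (SD, n = 3), a log2 fold change of 0.65 with an SE of 0.24 and a 95% interval from 0.13 to 1.18. The unadjusted p was 0.0195 and the adjusted p was 1 (edgeR quasi-likelihood test, Benjamini-Hochberg over all genes tested), so the difference did not pass the correction. An exact two-sided permutation test on CPM gave p = 0.1, the smallest that 3 against 3 allows.

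Differences of this size were also found among other genes. Of the 10891 genes tested, 0 passed an adjusted p of 0.05 (0%), while 234 (2.15%) had an unadjusted p up to 0.05, 150 (1.38%) of them higher and 84 (0.771%) lower in the KO. Genes whose KO libraries all lay above the heterozygous libraries numbered 430 (3.95%), and those with all KO libraries below numbered 382 (3.51%). Of the 6 members tested, 1, Egfr, reached the nominal threshold and had no overlap, and 5 had a higher mean in the KO, against 5462 (50.2%) of all genes. The median log2 fold change was 0.54 over the 6 members and 0.00 over all genes tested. Erbb3, Hbegf and Nrg1 reached 10 counts in only 3 libraries each, KO replicates 1 and 3 and 1 heterozygous library. They thus entered the test more through the KO, where their means were higher, which limits the comparison with all genes. Without KO replicate 1 only 3 members kept counts enough, 1 with a higher mean in the KO, and their median was -0.29. With any other library left out it lay between 0.17 and 0.58 over 3 to 6 members, of which 2 to 6 had a higher mean in the KO. Leaving out heterozygous replicate 2 gave Egfr a log2 fold change of 0.56 (unadjusted p = 0.0651, adjusted p = 1, edgeR), and leaving out KO replicate 1 gave 0.47 (unadjusted p = 0.0912, adjusted p = 0.743, edgeR), so the nominal call rested on those libraries. On the log2 scale of the deposited RPKM plus 1 it was 0.20 (unadjusted p = 0.208, adjusted p = 1, limma) and on that of RPKM plus 0.1 it was 0.48 (unadjusted p = 0.289, adjusted p = 1, limma).

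Erbb2, the receptor with no ligand of its own (chr11:98412470-98437716), was the most counted member, and no difference between genotypes was detectable at this depth. Counts were 229, 149 and 182 in the heterozygous and 210, 102 and 229 in the KO libraries. CPM were 70.0, 61.4 and 77.1 against 86.3, 50.3 and 62.8. The KO libraries spanned the whole heterozygous range, with KO replicate 1 above it and KO replicate 2 below it. The means were 66.5 ± 18.3 CPM in the KO and 69.5 ± 7.85 in the heterozygous samples, a log2 fold change of -0.06 (SE 0.19, 95% interval -0.48 to 0.36, unadjusted p = 0.757, edgeR). Its sign turned without heterozygous replicate 3 (0.018) or KO replicate 2 (0.089).

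The share of Egfr among the receptor transcripts separated the genotypes more tightly than its level did. In the summed RPKM of the 4 receptors, Egfr took 9.25%, 9.58% and 8.98% in the heterozygous libraries and 13.4%, 14.5% and 14.1% in the KO libraries. All 3 KO shares were above all 3 heterozygous shares, with an SD of 0.543 points in the KO and 0.304 in the heterozygous samples (n = 3), and the means differed by 4.73 percentage points, a gap that ran from 4.47 to 5.01 with 1 library left out. Erbb2 took 78.1%, 86.2% and 80.7% of the receptor RPKM in the heterozygous libraries and 74.8%, 80.4% and 70.0% in the KO libraries, with overlap. The count of Egfr per count of Erbb2, a ratio computed after these values were seen, was 0.258, 0.242 and 0.242 in the heterozygous libraries and 0.390, 0.392 and 0.437 in the KO libraries. A share within a library is free of the scale of that library, which differed here (summed RPKM over all genes ran from 179438 to 462951). As this description was made with the values known, it carries no test, and it cannot tell a higher Egfr from a lower partner.

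**Figure D2:**
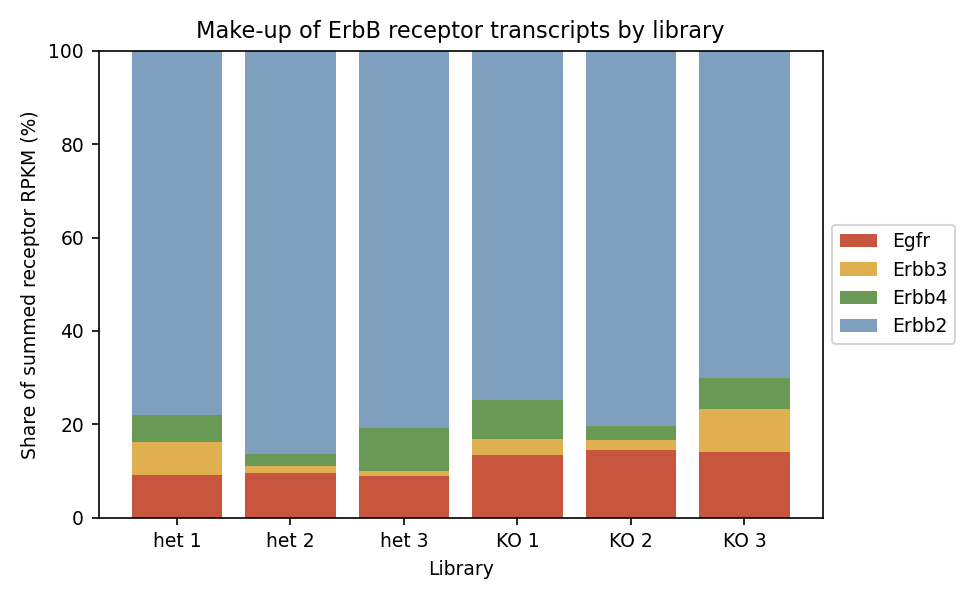
Make-up of the receptor transcripts in each library, as the percent of the summed RPKM of Egfr (red), Erbb3 (yellow), Erbb4 (green) and Erbb2 (blue), for heterozygous (het) and KO replicates 1 to 3. Erbb2 fills most of every bar, from 70.0% to 86.2%, and Egfr takes 8.98% to 9.58% in the heterozygous and 13.4% to 14.5% in the KO libraries.

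Erbb3, a neuregulin receptor with little kinase activity of its own (chr10:128567523-128589652), was low and varied more within a genotype than between them. Counts were 24, 3 and 3 in the heterozygous and 11, 3 and 35 in the KO libraries, or 7.33, 1.24 and 1.27 CPM against 4.52, 1.48 and 9.60 CPM. Heterozygous replicate 1 and KO replicates 1 and 3 were high and the other 3 were low, so the groups overlapped. The highest library was 5.93 times the lowest among the heterozygous and 6.49 times among the KO samples. The log2 fold change was 0.65 (SE 0.73, 95% interval -0.94 to 2.25, unadjusted p = 0.387, edgeR), a value like that of Egfr with an interval wide enough to hold 0.

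Single genes of other lineages were set beside Erbb3. Sox10, a neural crest transcription factor, had 9, 0 and 0 counts in the heterozygous and 1, 2 and 18 in the KO libraries, so that it was high with Erbb3 in heterozygous replicate 1 and KO replicate 3 but not in KO replicate 1. Epcam, an epithelial adhesion molecule and 1 of 11 epithelial genes listed, had 26, 4 and 6 and 15, 4 and 25 counts, high in the same 3 libraries as Erbb3. The whole neural crest list did not follow Erbb3. Its 9 genes summed to 103, 106 and 151 CPM in the heterozygous and 138, 124 and 157 in the KO libraries, lowest in heterozygous replicate 1, where Erbb3 was high. Ngfr, a receptor of neurotrophins and the second largest part of that sum after Ets1, stood at 21.1 CPM in heterozygous replicate 1 and 60.6 in heterozygous replicate 3. The 11 epithelial genes, of which Krt5 was at 0, summed to 413, 265 and 248 CPM in the heterozygous and 263, 245 and 302 in the KO libraries. That sum followed Erbb3 only in part. It was highest in heterozygous replicate 1 and KO replicate 3. In KO replicate 1, where Erbb3 was high, it lay below heterozygous replicate 2, where Erbb3 was low. Krt8 and Krt18 made up most of that sum, at 213 and 141 CPM in heterozygous replicate 1. Like Epcam, the genes Cdh1, Krt19, Trp63, Esrp1 and Cldn6 were higher in each of the same 3 libraries than in any other, some by few counts. Krt8, Krt18, Krt14 and Grhl2 were not. The part of these cells in the Erbb3 counts was not tested, and in bulk libraries a change in the number of cells of a type and a change in RNA per cell cannot be told apart.

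Erbb4, the other neuregulin receptor (chr1:68032186-69108059), had 39, 11 and 49 counts in the heterozygous and 56, 9 and 52 in the KO libraries. This was 11.9, 4.53 and 20.8 CPM against 23.0, 4.44 and 14.3 CPM. Replicate 2 was the lowest library of both genotypes, at nearly the same level, and the groups overlapped throughout. The means were 13.9 ± 9.29 CPM in the KO and 12.4 ± 8.12 in the heterozygous samples, a log2 fold change of 0.19 (SE 0.54, 95% interval -0.998 to 1.38, unadjusted p = 0.729, edgeR). The sign turned without heterozygous replicate 2 (-0.19) or KO replicate 1 (-0.32). The 6 heart muscle markers (Myh6, Myh7, Tnnt2 and others), a tissue in which Erbb4 is used, summed to 376, 12.8 and 255 CPM in the heterozygous and 1508, 151 and 67.2 CPM in the KO libraries. KO replicate 1 was highest for both, whereas KO replicate 3 had more Erbb4 than KO replicate 2 with a lower heart sum, and heterozygous replicate 3 more Erbb4 than heterozygous replicate 1 with a lower heart sum. The heart had been dissected away before the sort, by the protocol. Their part in the Erbb4 counts was not tested.

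**Figure D3:**
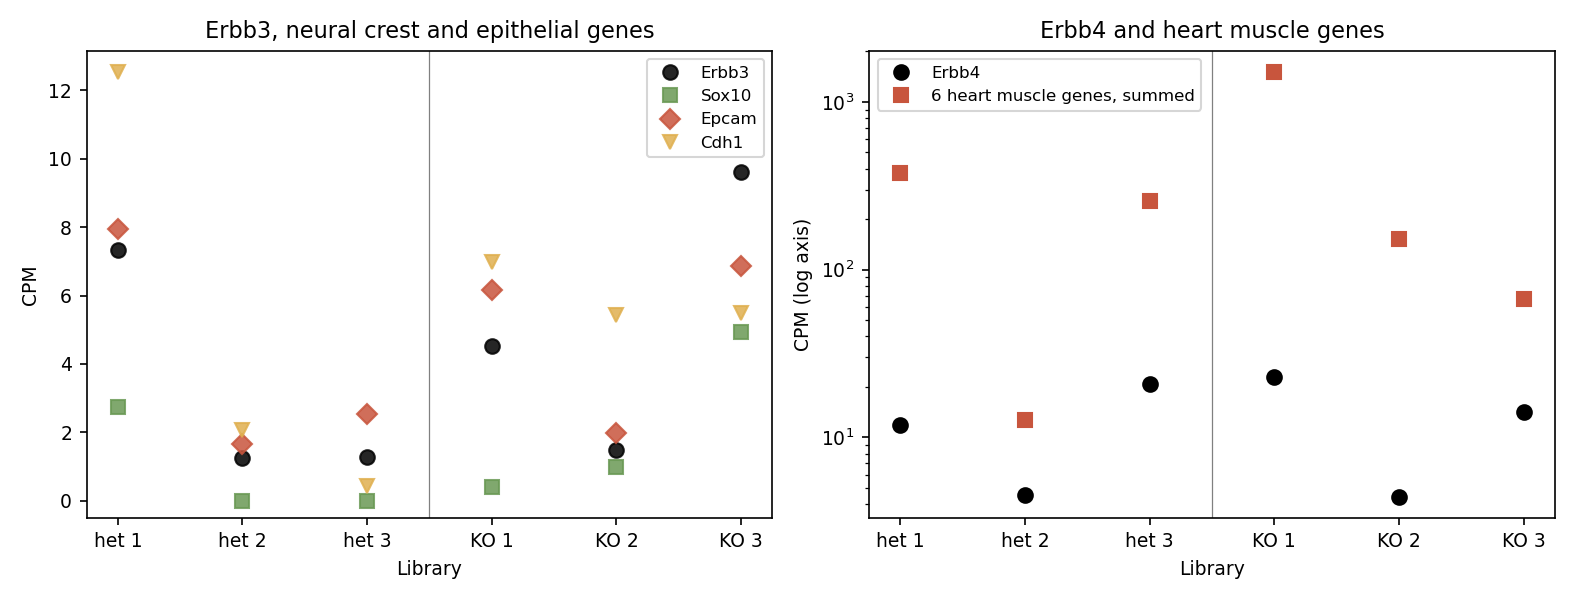
Erbb3 beside the neural crest gene Sox10 and the epithelial genes Epcam and Cdh1 (left, CPM on a linear axis), and Erbb4 beside the summed level of 6 heart muscle genes (right, CPM on a log axis), in each library. Erbb3 is highest in KO replicate 3 (9.60 CPM) and heterozygous replicate 1 (7.33 CPM), where Sox10 is highest too, and Erbb4 is lowest in replicate 2 of both genotypes (4.53 and 4.44 CPM).

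Among the ligands, Hbegf and Nrg1 alone had counts enough for the test, and neither reached the nominal threshold. Hbegf, the heparin-binding ligand of Egfr and Erbb4 (chr18:36504929-36515805), had 6, 12 and 6 counts in the heterozygous and 14, 7 and 13 in the KO libraries, or 1.83, 4.95 and 2.54 CPM against 5.75, 3.45 and 3.57 CPM. The groups overlapped through heterozygous replicate 2. The means were 4.26 ± 1.30 and 3.11 ± 1.63 CPM in KO and heterozygous samples, a log2 fold change of 0.47 (SE 0.51, 95% interval -0.65 to 1.59, unadjusted p = 0.372, edgeR). Nrg1, the neuregulin bound by Erbb3 and Erbb4 (chr8:31814551-32884029), had 9, 2 and 12 counts in the heterozygous and 12, 9 and 14 in the KO libraries, or 2.75, 0.825 and 5.08 CPM against 4.93, 4.44 and 3.84 CPM. The heterozygous libraries spread on both sides of the KO libraries. The log2 fold change was 0.60 (SE 0.56, 95% interval -0.62 to 1.82, unadjusted p = 0.305, edgeR).

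The other 4 ligands were near or under the floor of 3 counts, which corresponds to between 0.823 and 1.48 CPM in these libraries and covers counting error only. Tgfa, an Egfr ligand, had 2, 2 and 1 counts in the heterozygous and 0, 0 and 7 in the KO libraries, so that its KO total came from replicate 3 alone. The ratio of the summed counts, scaled by library size, was 1.39 (0.380 to 5.56 as the exact 95% Clopper-Pearson bounds), and the exact two-sided permutation test on CPM gave p = 1. Btc, which encodes betacellulin, had 0, 2 and 0 counts in the heterozygous and 0, 1 and 1 in the KO libraries. Ereg, which encodes epiregulin, had 1, 0 and 1 against 0, 0 and 1. Areg, which encodes amphiregulin, had 0 counts in the 3 heterozygous libraries and 1, 0 and 0 in the KO libraries. For these 3 both genotypes stood at or under the floor and no fold is given. Of 5 further ErbB ligands, none had counts enough for the test. Egf had 12, 13 and 1 counts in the heterozygous and 5, 6 and 5 in the KO libraries, and Nrg2 had 4, 3 and 9 and 5, 8 and 7. Nrg3, Nrg4 and Epgn had 7, 6 and 2 counts over all 6 libraries.

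**Figure D4:**
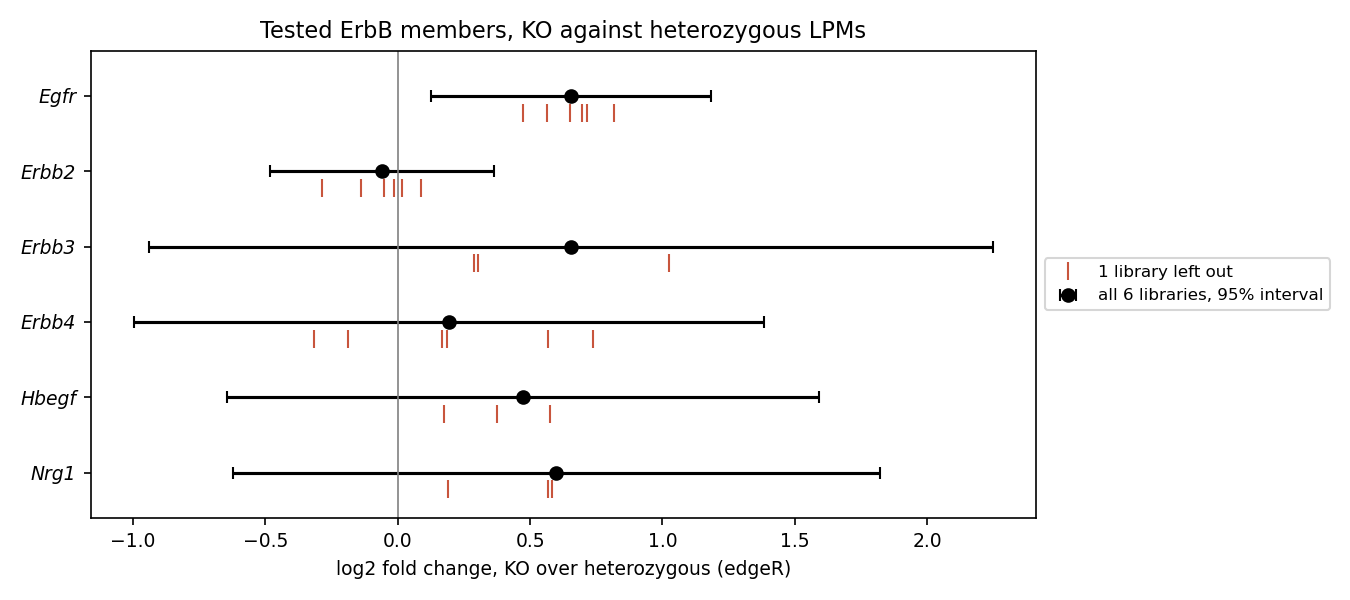
log2 fold change of KO over heterozygous LPMs for the 6 members tested (edgeR), with the 95% interval from all 6 libraries (black point and bar) and the values with 1 library left out (red ticks, given where the gene still had counts enough). The interval of Egfr, 0.13 to 1.18, is the 1 of the 6 that lies above 0, and the ticks of Erbb2 and Erbb4 fall on both sides of 0.

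Levels of different genes were compared per length, as deposited RPKM over all 6 libraries. Erbb2 led with 3.21 ± 0.903 RPKM and was above Egfr in 6 of 6 libraries. Egfr followed at 0.484 ± 0.217 RPKM. Then came Hbegf at 0.374 ± 0.154, Erbb4 at 0.266 ± 0.157, Erbb3 at 0.200 ± 0.209 and Nrg1 at 0.0980 ± 0.0451 RPKM (SD, n = 6). The SDs of neighbours after Erbb2 overlapped, and the order held in 5 of 6 libraries for Egfr over Hbegf, in 4 for Hbegf over Erbb4, in 4 for Erbb4 over Erbb3, in 4 for Erbb3 over Nrg1 and in 5 for Nrg1 over Tgfa. Tgfa, Btc, Areg and Ereg stood at 0.0288, 0.0137, 0.0124 and 0.0111 RPKM, values of a few counts that set no order. Among the ligands Hbegf took the largest share of the summed RPKM in all 6 libraries, from 58.1% to 83.9%, and Nrg1 took from 3.65% to 32.8%. The exon lengths behind the RPKM, worked back from counts, matched those of GENCODE M21 for 8 of the 10 members within 0.1%, but not for Hbegf (2373 against 4834 bases) or Nrg1 (9086 against 10351 bases). With the GENCODE lengths Hbegf fell behind Erbb4, and the other 8 kept their rank. The ligand shares rest on the deposited lengths and were not worked out with the GENCODE lengths, under which that of Hbegf would be smaller.

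The genes whose pattern over the 6 libraries was most like that of Egfr, by the mean absolute difference of centred log2 CPM among 10291 genes with a mean of at least 5 CPM, were Pfkfb1 (0.0946), 1600020E01Rik (0.101) and Hgsnat (0.102). Pfkfb1, an enzyme of fructose 2,6-bisphosphate metabolism, stood at 5.81, 3.71 and 5.51 CPM in the heterozygous and 9.86, 4.93 and 7.96 CPM in the KO libraries. Like Egfr, it was lowest in replicate 2 of each genotype, and unlike Egfr its genotypes overlapped. Likeness over 6 libraries is a description and says nothing of control.

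The genes that relay ErbB signals were counted against the background of 1.38% higher and 0.771% lower at the nominal level. Of 32 adaptors and relay genes, 31 were tested, 1 was higher and 0 lower at an unadjusted p up to 0.05, a share near the background, and the median log2 fold change was 0.03. The 1 was Grb2, an adaptor that binds activated receptor tyrosine kinases, with 120, 109 and 92 counts in the heterozygous and 131, 114 and 176 in the KO libraries. Its KO libraries were all above the heterozygous libraries on the CPM scale, at 52.8 ± 4.07 against 40.2 ± 4.26, which edgeR gave as 0.39 on the log2 scale with an SE of 0.16 (unadjusted p = 0.0303, adjusted p = 1). The nominal call was lost without heterozygous replicate 1, without heterozygous replicate 3, without KO replicate 1 or without KO replicate 2, with unadjusted p from 0.0625 to 0.105 (edgeR), while its log2 fold change in those fits stayed between 0.33 and 0.37. Gab2 and Araf, at 0.35 and -0.25 on the log2 scale, did not pass the nominal threshold.

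Genes that release ligands or restrain the receptors showed no member at the nominal level. Of 15 shedding and maturation genes 12 were tested, 2 with a higher and 10 with a lower mean in the KO, with a median of -0.08. Gpc1, Hspg2, Rhbdf1 and Furin were those of smallest p, from 0.332 to 0.470 (edgeR). Of 23 restraint and feedback genes all 23 were tested, 10 with a higher and 13 with a lower mean, with a median of -0.01. Errfi1, the feedback inhibitor of Egfr also known as Mig6, was at 28.3 ± 0.818 CPM in the KO and 23.5 ± 1.76 in the heterozygous samples without overlap, but its log2 fold change of 0.26 had an unadjusted p of 0.184 (edgeR). Usp8, a deubiquitinase that acts on internalised receptors, was at -0.22 on the log2 scale (unadjusted p = 0.134, adjusted p = 1, edgeR), also without overlap. Leaving out KO replicate 1 gave 1 lower shedding gene (Hspg2), 2 lower restraint genes (Lrig2 and Rasa1) and 2 lower relay genes (Ptpn11 and Sos1), names given after their values were seen. Calls rose over all genes in that fit, where 749 of 10677 had an unadjusted p up to 0.05 in either direction (edgeR), against 234 of 10891 with all libraries. These names are therefore not read as a result about the lists.

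Early response genes, which ErbB signalling among many other inputs is known to induce, were the list with the most nominal calls. Of 16, 11 were tested, and 4 (Egr1, Atf3, Fos and Zfp36) were higher and 0 lower at an unadjusted p up to 0.05, with 10 of the 11 higher in mean and a median log2 fold change of 0.83. Egr1 had 38, 56 and 48 counts in the heterozygous and 116, 49 and 425 in the KO libraries, which edgeR gave as 1.83 on the log2 scale with an SE of 0.48 (unadjusted p = 0.00258, adjusted p = 1). Fos had 34, 56 and 36 and 104, 20 and 418 counts, so that KO replicate 2 was the lowest library and KO replicate 3 the highest. Atf3 and Zfp36 also peaked in KO replicate 3, with 93 and 73 counts. That library was highest in other markers as well: 4 liver genes summed to 243 CPM (7.89 to 90.0 in the others), 6 blood genes to 13.7 (0 to 2.89) and 6 endothelial genes to 226 (57.7 to 178). Their part in the early response counts was not tested. Without KO replicate 3 the count of calls was 1 (Egr1), the median was 0.33 and 8 of 11 were higher in mean, while without KO replicate 2 the count was 8. Calls over all genes moved too, at 127 of 10581 without KO replicate 3 and 367 of 10830 without KO replicate 2, in either direction. The highest level of Egfr was in KO replicate 1, and without KO replicate 3 its log2 fold change was 0.65 (unadjusted p = 0.0473, adjusted p = 1, edgeR). Whether early response and receptor levels are linked was not tested.

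Neighbouring annotation may bear on how far single values can be read. In GENCODE M21, Egfros lies within Egfr on the opposite strand, Mien1 overlaps the last 9 bases of Erbb2 and Gm25048 also lies on its opposite strand, and Nrg1 holds 2, Tgfa 1 and Ereg 1 genes of the opposite strand. Overlap was taken over whole gene spans, introns included, and overlap of exons was not examined. The strand setting of the counting is not given in the sources used here, so reads of any shared exons cannot be told apart. On the same strand, 8 annotated genes overlap the span of Erbb4 and Mir6917 overlaps that of Erbb3. Erbb4 spans 1076 kb with 12355 bases of exon. No strand setting would separate reads of exons shared with those genes, if there are any.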

How the data were processed

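RNA from FACS-sorted, Tdtomato-positive thoracic LPMs was made into SMARTer libraries and sequenced on a NextSeq-500. The authors mapped the reads and counted them per gene with CLC and its Ensembl annotation. The deposited table holds raw counts and RPKM (reads scaled to exon length and to a total for the library) for each library. The methods name mm10 and the submitters' processing notes mm9. Coordinates in the table were those of mm10. Library depth was 2088091 to 3525565 counts on genes from 36931792 to 44536132 reads, and genes of a few counts are therefore imprecise. The 12 columns of normalized and transformed values per sample were not used, and neither were columns and a table of the authors' fold changes and p-values.

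Counts were tested with edgeR 4.0.16 (glmQLFit and glmQLFTest, TMM factors from 0.971 to 1.034, R 4.3.3) over genes that reached 10 counts in 3 or more libraries, 3 KO against 3 heterozygous samples, with Benjamini-Hochberg adjustment over 10891 genes. The scripts were checked on simulated counts. Members below the minimum were given as counts, with an exact permutation test on CPM. Alternatives were DESeq2 1.42.0, limma 3.58.1 (voom, and RPKM with pseudocounts of 1 and 0.1), other scalings and filters, a replicate block and each library left out. The exon length of GENCODE M21 and the lists with a library left out were added after seeing the data. Named genes were the 10 members, up to 4 genes of smallest p in each pathway list and the 3 genes nearest to Egfr. The members and lists were chosen with earlier results of these data known. Replicates are samples numbered in the labels, which do not say whether they came from separate embryos or pools, so p-values measure the spread between these samples. The labels give no batch. Single values of some list genes are not reported here.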

Additional observations from a re-analysis of the deposited data

How the results depend on the processing

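The log2 fold change of Egfr kept its direction, at 0.20 to 0.82 over 15 alternatives and 0.47 to 0.82 with 1 library left out. Those of Erbb3 (0.12 to 1.03 over 11), Hbegf (0.13 to 0.57 over 11) and Nrg1 (0.05 to 0.83 over 11) did so only in the fits that gave them a value. Erbb2 ran from -0.29 to 0.089 with 1 library left out, turning to 0.018 without heterozygous replicate 3 and to 0.089 without KO replicate 2. Erbb4 ran from -0.32 to 0.74, turning to -0.19 without heterozygous replicate 2 and to -0.32 without KO replicate 1. The cause was not tested. Members at an unadjusted p up to 0.05 numbered 1 in the main test, 0 with RPKM plus 1 or plus 0.1, and 0 to 1 with a library left out. Erbb3, Hbegf and Nrg1 gave a value in 3 of 6 such fits, since they otherwise lacked counts enough for the filter. For all 3 genes, the fits without KO replicate 1 and without KO replicate 3 were missing. Also missing were those without heterozygous replicate 1 for Erbb3, 2 for Hbegf and 3 for Nrg1. The fits left were those that dropped a library of low count, so the direction of these genes was not checked without their high libraries.

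Genes past an adjusted p of 0.05 numbered 0 in the main test, 38 without the count filter (18119 genes tested), 1 with RPKM plus 1, 5 with RPKM plus 0.1 and 0 to 1 with a library left out. Genes at an unadjusted p up to 0.05 numbered 234, against 125 with DESeq2, 571 without the filter, 71 with RPKM plus 1, 61 with RPKM plus 0.1 and 127 to 749 with a library left out (127 without KO replicate 3, 367 without KO replicate 2 and 749 without KO replicate 1). The share of Egfr among receptors is the same under GENCODE lengths because those lengths match the deposited ones for all 4 receptors, so that alternative adds no check.

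The replicate numbers were not used as pairs in the main test. Deviations of same-numbered libraries correlated at 0.431, 0.195 and 0.0134 for replicates 1, 2 and 3. KO replicates 1 and 2 correlated most with the heterozygous library of their own number, whereas KO replicate 3 correlated most with heterozygous replicate 2 (0.0920). These values do not settle whether the samples were paired. With a replicate block, 2 genes passed the adjusted threshold, 493 had an unadjusted p up to 0.05, and Egfr stood at 0.64 (unadjusted p = 0.0106, adjusted p = 0.956, edgeR). Depth limits the ligands most, and the floor of 3 counts is not the limit of detection. Hbegf, with 24 heterozygous and 34 KO counts in all, and Nrg1, with 23 and 35, did not reach the nominal threshold.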
